A study of Erythranthe pardalis x Erythranthe guttata and Erythranthe pardalis with 20 samples.

Results

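The 200 genes described here are those with the steadiest level across ovule and early seed development in a monkeyflower cross. They were chosen from 28140 genes by their measured values. Counts were scaled to normalized CPM, the CPM (a gene's counts for a library total of 1000000) after TMM scaling, which sets the totals so that most genes differ little between libraries. The 2178 genes that lay between 20 and 200 normalized CPM in all 20 libraries were kept, and the 200 with the smallest coefficient of variation (CV, the SD over the 20 libraries as a percentage of the mean) are the stable genes. Their small CV, and every measure of change with age taken from the same libraries, is therefore a description of the choice and carries no test.

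Ovules (0 days after pollination, 0 DAP) came from unpollinated flowers of SEC39, an inbred line of the selfing species Mimulus pardalis. Seeds came from SEC39 mothers pollinated by CSS4, an inbred Mimulus guttatus, and were taken whole at 2, 4, 6 and 8 DAP, so that seed coat, endosperm and embryo were measured together. There were 5 libraries of ovules, and 4, 3, 4 and 4 of seeds in order of age, each from a pool of ovaries or fruits. Only this cross direction was sequenced, ovules and seeds differ in genotype as well as in age, some placental tissue may have been taken with them, and the labels and the study's methods describe the pools differently. All plants were grown under 18-hour days at 21 degrees and 30% relative humidity.

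A seed joins 3 lineages, with the maternal seed coat around a biparental embryo and an endosperm that carries an extra maternal genome. Genes of protein turnover, membrane traffic, translation and RNA processing serve nearly every cell, and some of them are used as reference genes, against which the transcripts of other genes are scaled in real-time PCR. A reference gene is useful only where its own level stays the same between the samples compared. In bulk tissue a steady level per library does not say how it is divided among cells, since fewer cells of a type and less RNA per cell cannot be told apart.

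Besides the genes it tested by real-time PCR, the study lists primers for 2 more. They are PEX4 (Migut.A00226), a ubiquitin-conjugating enzyme of peroxisomes, and EF1A (Migut.D02188), a translation elongation factor. Both are taken here as its reference genes, which its main text does not state. The study reports that its tested genes, in separately collected RNA from new plants, closely followed their sequencing patterns. The primers of PEX4 and EF1A are shown because the stable set is set against these genes below. The letters are in lower case throughout, and the pairs are written 5′ to 3′.
Mg_Pex4_Fw: ggcttggaccctgcaatcagt
Mg_Pex4_Rv: tcttgggcatggcagcaagtc
Mg_EF1A_Fw: gctcttcttgctttcactcttgg
Mg_EF1A_Rv: ggaacgaatgggattttgtc
The primers of PEX4 were both 21 bases long and held 57.1% G and C. Those of EF1A were 23 and 20 bases long and held 47.8% and 45% G and C.

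Total counts ran from 7588155 to 16529554 per library (median 13118699), with the lowest in ovule replicate 1. The 6 marker genes looked up did not all follow the labels. The homologue of ZHOUPI (Migut.N01183), an endosperm transcription factor in Arabidopsis, had no count in any ovule library, which allows up to 0.395 CPM in the shallowest, and lay at 9.88 to 12.9 normalized CPM at 8 DAP. The ABI3 homologue Migut.D00511, a regulator of seed maturation, was at 0 in ovules and at 18.7 to 43.1 at 8 DAP, while the MADS-box gene Migut.B00480 was at 3.07 to 8.15 in ovules and at 0 at 8 DAP. A second ovule-expressed MADS-box gene, Migut.N01504, was at 2.26 to 7.71 in 4 ovule libraries and at 0 in ovule replicate 5. Of the other maturation genes, the FUS3 homologue Migut.F00019 spread from 1.502 to 20.6 at 8 DAP and reached 2.73 at 6 DAP, and the L1L homologue Migut.M01289 peaked at 6 DAP, with a mean of 21.7 there, 8.38 at 8 DAP and up to 20.7 in 2 DAP seeds. Libraries also fell into 2 series by their number in the study. Numbers 15 to 20 hold ovule replicates 3 to 5 and the 2 DAP replicates 2 to 4, and all others belong to numbers 1 to 14. TMM factors, by which totals were multiplied, were 0.952 to 1.49 in ovules, 0.723 to 1.31 at 2 DAP and 0.738 to 0.869 in the oldest seeds. The 200 stable genes are therefore steady relative to the bulk of genes, and not relative to the total of counts.

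CVs of the stable genes ran from 9.59% to 19.6% with a median of 17.3%, where the 2178 genes of the CPM window had a median of 30.6% and reached 82.5%. Counting error alone would give the stable genes a median CV of 4.07%, so that it made up a median of 5.75% of their squared CV. Their mean level ran from 26.4 to 149 normalized CPM (median 49.0). Within a gene the highest library was 1.42 to 2.72 times the lowest (median 1.89), against a median of 3.02 in the window. The boundary of the set was gradual. The 200th gene, Migut.D00293, had a CV of 19.61% and the next gene outside, Migut.E00064, a CV of 19.64%.

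**Figure D1:**
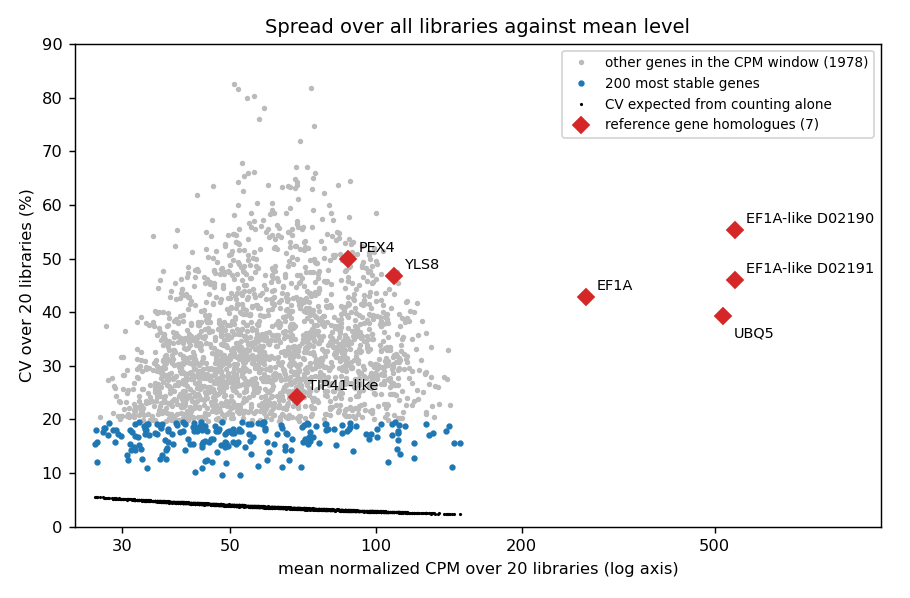
CV over the 20 libraries (%) against mean normalized CPM (log axis), 1 point per gene. The 200 stable genes lie at or below 19.6% by construction and well above the CV expected from counting alone (black), while all 7 reference gene homologues lie above them, from 24.2% for TIP41-like to 55.3% for Migut.D02190. Of the 7, only PEX4 and TIP41-like lie in the CPM window, and the rule left out the others whatever their CV.

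The steadiest gene was Migut.L01013, with a CV of 9.59%, for which the tables used here give no homologue. Its normalized CPM was 56.7, 50.5, 61.0, 56.3 and 63.2 in ovules, 41.4, 52.7, 52.3 and 54.5 in 2 DAP seeds, 45.3, 49.4 and 50.3 in 4 DAP seeds, 48.7, 50.2, 48.6 and 57.3 in 6 DAP seeds, and 52.0, 50.9, 53.3 and 53.9 in 8 DAP seeds. The libraries of every age overlapped those of 2 DAP, where replicate 1 was the lowest of all 20.

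Next came Migut.A00502, the homologue of FEI1, a leucine-rich repeat receptor kinase that acts in cell wall synthesis in Arabidopsis roots, with a CV of 9.73%. It was at 44.2, 47.7, 44.4, 40.1 and 53.6 normalized CPM in ovules, 45.7, 50.3, 50.02 and 52.0 in 2 DAP seeds, 57.1, 50.1 and 54.5 in 4 DAP seeds, 47.9, 50.5, 54.6 and 41.9 in 6 DAP seeds, and 44.9, 47.5, 42.5 and 44.7 in 8 DAP seeds. Its highest library was 1.42 times its lowest, the smallest such ratio among the stable genes, and its age means stayed between 44.9 ± 2.08 (SD, n = 4) at 8 DAP and 53.9 ± 3.55 (SD, n = 3) at 4 DAP.

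Migut.H01958 had a CV of 10.2%. Its values were 45.5, 45.8, 47.3, 48.3 and 40.6 normalized CPM in ovules, 45.3, 45.6, 42.0 and 40.4 in 2 DAP seeds, 42.8, 43.1 and 46.0 in 4 DAP seeds, 41.5, 42.8, 42.5 and 41.6 in 6 DAP seeds, and 38.3, 43.4, 28.7 and 36.9 in 8 DAP seeds. Apart from 8 DAP replicate 3, at 28.7, its libraries kept within 36.9 and 48.3. The other 7 of the 10 steadiest genes had CVs of 10.9% to 11.8%. They were Migut.D02553 with a mean of 33.7 normalized CPM, Migut.M00038 with 43.8, Migut.J01850 with 64.1, Migut.N02262 with 70.0, Migut.N02574 with 143, Migut.F00799 with 57.2 and Migut.H00537 with 49.1. None of these 7 was paired with a homologue in the tables used here.

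**Figure D2:**
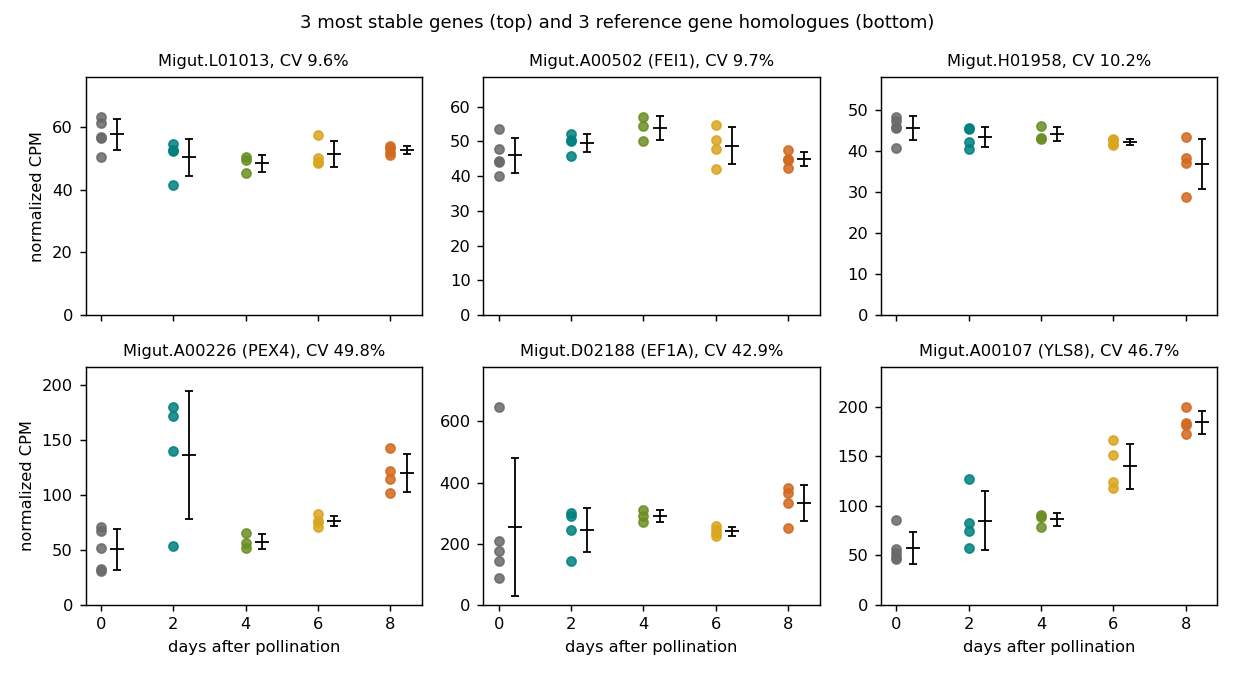
Normalized CPM of the 3 steadiest genes (top) and of 3 reference gene homologues (bottom) against days after pollination, with a point per library and the mean ± SD of each age to its right. Each vertical axis starts at 0. Migut.L01013, FEI1 and Migut.H01958 stay level, while PEX4 is highest at 2 DAP, EF1A has 1 ovule library at 649 and YLS8 is highest at 8 DAP.

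Homologues were at hand for 20 of the 200 stable genes. Of these, 14 came from a part of the study's gene table that was cut by gene order and covers 1994 genes, and 6 came from lists that the study picked for change or for another pattern, so that the 20 do not represent the set. The 6 were Migut.C00946, Migut.D00009, Migut.D02576, Migut.C00727, Migut.D00696 and Migut.B01098. Roles below are those known in Arabidopsis. By keyword, the 12 of those 14 that had a category held 1 of the 5 genes of RNA processing, 1 of the 8 of protein turnover, 1 of the 8 of membrane traffic, 1 of the 5 of translation and 1 of the 5 of kinases and phosphatases that the same part of the table has in the CPM window, and 6 fell in no class. In all, 12 of the 152 window genes with a category were stable, and there was none among the 3 of chromatin, the 3 of cytochrome P450 and peroxidases, and the 1 each of the cell wall, of mitochondria and of the cell cycle. Its 82 DNA-binding transcription factors had 1 gene in the window, and this was stable. Its 14 genes of storage, lipid transfer and oil bodies had none in the window.

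The first to be described are genes of signalling, traffic and the cytoskeleton. Migut.C00946, the homologue of BSK1, a kinase that passes on the brassinosteroid signal from its receptor, was at 41.9, 41.9, 39.7, 38.8 and 47.3 normalized CPM in ovules, 32.1, 31.1, 41.9 and 32.6 in 2 DAP seeds, 37.1, 35.5 and 35.3 in 4 DAP seeds, 33.5, 30.4, 33.7 and 31.3 in 6 DAP seeds, and 40.2, 38.0, 41.8 and 35.2 in 8 DAP seeds. Its ovule libraries all lay above those of 4 and 6 DAP and overlapped those of 2 and 8 DAP. Migut.B00246, the homologue of RABG3F, a small GTPase of traffic to the vacuole, was more abundant, at 73.4, 113, 106, 105 and 105 in ovules, 113, 93.6, 88.2 and 126 in 2 DAP seeds, 136, 126 and 110.3 in 4 DAP seeds, 119, 124, 126 and 116 in 6 DAP seeds, and 135, 113, 108 and 106.9 in 8 DAP seeds. Ovule replicate 1 was its lowest library, and without it the lowest was a 2 DAP library at 88.2. The homologue of CAP1 (Migut.B00240), which binds actin monomers, ranged from 50.9 ± 11.2 (SD, n = 5) at 0 DAP to 77.0 ± 7.13 (SD, n = 3) at 4 DAP, a ratio of 1.51. Age made up 62.4% of the spread of BSK1, 37.1% of that of RABG3F and 69.5% of that of CAP1, as shares of the squared deviations from the mean. The median share in the CPM window was 54.0%.

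The homologues of DSK2, OVA3 and RLI2, which act in protein quality and translation, each had their lowest mean in ovules after TMM scaling and DESeq2 size factors, and not on total counts. After TMM scaling 25% of the stable genes and 26.4% of the window genes had their lowest mean there. Migut.B00013, the homologue of DSK2, a receptor that carries ubiquitin-tagged proteins to breakdown, was at 35.8, 29.3, 34.4, 41.7 and 32.6 normalized CPM in ovules, 38.9, 41.9, 42.0 and 43.4 in 2 DAP seeds, 45.7, 43.7 and 51.5 in 4 DAP seeds, 50.3, 50.2, 50.6 and 49.9 in 6 DAP seeds, and 48.2, 51.5, 45.9 and 50.3 in 8 DAP seeds. The 4, 6 and 8 DAP libraries all stood above the ovule and 2 DAP libraries, and age made up 83.3% of its spread, the largest such share of the 200. Its age means on total counts were lowest at 2 DAP, at 38.3, and highest at 4 DAP, at 54.5. The glutamate tRNA synthetase homologue OVA3 (Migut.B00003), an enzyme of plastids and mitochondria named for aborted ovules in its mutant, went from 62.9 ± 10.3 (SD, n = 5) at 0 DAP to 92.9 ± 11.8 (SD, n = 4) at 8 DAP, with a CV of 18.0%. The RLI2 homologue (Migut.A00525), whose family frees ribosomes after translation, had a CV of 19.3% and went from 77.0 ± 20.2 (SD, n = 5) at 0 DAP to 106 ± 12.98 (SD, n = 4) at 8 DAP. On total counts these 2 genes were highest at 4 DAP, at 90.5 and 95.6.

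Metabolism and transport were represented by 3 named homologues. Migut.B00611, like the potassium transporter KUP7, was at 42.7, 41.9, 56.7, 58.6 and 69.8 normalized CPM in ovules, 64.3, 72.7, 77.6 and 73.3 in 2 DAP seeds, 69.1, 72.3 and 71.8 in 4 DAP seeds, 71.1, 60.7, 65.2 and 65.0 in 6 DAP seeds, and 66.0, 69.9, 67.3 and 65.8 in 8 DAP seeds. All seed libraries lay between 60.7 and 77.6, and its 2 lowest values were ovule replicates 1 and 2, the ovule libraries of numbers 1 to 14. These are also the ovule libraries for which the study does not report pooling several plants. HEMG1 (Migut.D00009), a protoporphyrinogen oxidase on the way to chlorophyll and haem, had age means of 40.8 ± 4.77 (SD, n = 4) at 6 DAP to 54.1 ± 5.51 (SD, n = 4) at 8 DAP. BCDH BETA1 (Migut.D02576), a subunit of the enzyme that breaks down branched-chain amino acids, was level at 79.0 ± 0.875 (SD, n = 3) and 78.8 ± 1.99 (SD, n = 4) at 4 and 6 DAP, and spread widely at 2 DAP at 101 ± 24.2 (SD, n = 4).

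Among genes that handle RNA or DNA, Migut.A00161, a KH domain protein with an exonuclease domain, was highest in ovules at 96.7 ± 16.2 (SD, n = 5) and between 72.5 and 83.8 on average in seeds. The pentatricopeptide repeat gene Migut.B00504, whose family binds organelle transcripts, had a CV of 12.3%. The transcription factor homologue bZIP16 (Migut.A00608) had a CV of 19.5%, near the boundary of the set, with means of 27.2 ± 2.01 (SD, n = 3) at 4 DAP and 37.8 ± 9.04 (SD, n = 4) at 2 DAP. The remaining 7 annotated stable genes, Migut.A00152, Migut.B00004, Migut.B00406, Migut.C00727, Migut.A01071 (CP5), Migut.D00696 and Migut.B01098, had CVs of 13.9% to 19.3%.

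Age means of the stable genes differed by a median of 1.34 times between the highest and the lowest age (range 1.07 to 1.74), against 1.81 in the CPM window. The peak was spread over the ages. Of the 200, 45, 21, 52, 36 and 46 had their highest mean at 0, 2, 4, 6 and 8 DAP in this order, and 50, 44, 40, 25 and 41 had their lowest there. In the window 21.2% of genes peaked at 2 DAP, where 10.5% of the stable genes did. Differences between ages made up a median of 42.6% of a stable gene's spread (range 6.74% to 83.3%) and differences among libraries of 1 age the rest. In the window the median share of age was 54.0%.

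The flattest profile over age was that of Migut.N02262. It was at 96.4, 65.8, 64.5, 62.3 and 67.4 normalized CPM in ovules, 68.1, 73.5, 80.8 and 64.7 in 2 DAP seeds, 74.6, 72.6 and 68.7 in 4 DAP seeds, 70.3, 72.8, 65.5 and 62.0 in 6 DAP seeds, and 67.2, 64.6, 72.8 and 65.8 in 8 DAP seeds. Its age means ran from 67.6 to 72.0, a ratio of 1.07, and its 1 far value was ovule replicate 1. Migut.N01722, Migut.D02553, Migut.J01850 and Migut.M00724 followed with ratios of 1.11, 1.11, 1.12 and 1.13.

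At the other end stood Migut.B01098, an ankyrin repeat gene, with a ratio of 1.74. It was at 41.3, 35.9, 55.1, 55.3 and 52.8 normalized CPM in ovules, 41.5, 50.1, 51.1 and 48.7 in 2 DAP seeds, 32.5, 34.5 and 28.5 in 4 DAP seeds, 43.0, 46.5, 48.3 and 46.9 in 6 DAP seeds, and 52.9, 50.6, 57.8 and 60.7 in 8 DAP seeds. The 3 libraries of 4 DAP were the 3 lowest of all 20. Its lowest age was 4 DAP under TMM, under DESeq2 size factors (31.7) and on total counts (36.8).

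Migut.D02227 was lowest at the last age, with 72.9, 91.6, 93.5, 75.9 and 75.4 normalized CPM in ovules, 91.7, 85.3, 80.7 and 89.2 in 2 DAP seeds, 101, 93.3 and 99.0 in 4 DAP seeds, 83.9, 80.4, 75.9 and 74.7 in 6 DAP seeds, and 64.0, 60.4, 44.2 and 59.7 in 8 DAP seeds. No 8 DAP library overlapped any other age, and 8 DAP was also its lowest age on total counts, at 45.1. Migut.H00209 was lowest in ovules, with 35.1, 28.1, 37.9, 39.4 and 42.6 in ovules, 55.5, 54.7, 66.4 and 61.1 in 2 DAP seeds, 47.5, 56.1 and 54.5 in 4 DAP seeds, 53.2, 49.7, 45.9 and 53.7 in 6 DAP seeds, and 53.3, 44.4, 39.6 and 44.0 in 8 DAP seeds. Its ovule libraries overlapped only those of 8 DAP, and on total counts its lowest age moved from 0 to 8 DAP. Migut.L01464, with a ratio of 1.63, was lowest in ovules at 54.6 ± 9.36 (SD, n = 5) and highest at 8 DAP at 88.8 ± 5.30 (SD, n = 4), while on total counts it was highest at 4 DAP, at 80.7. Migut.H00576 had a ratio of 1.60.

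In edgeR's quasi-likelihood fit of all 20242 genes that passed a filter on low counts, 50.3% were called at a Benjamini-Hochberg false discovery rate of 0.01 in the joint test of the 4 transitions between ages. Among the stable genes 4 were called, and 40 had an unadjusted p below 0.05, for which the share over all genes is not given here. The rule used the same libraries, so that nothing is read from the difference between these shares. The 4 genes were Migut.D02227, Migut.H00209, Migut.K00178 and Migut.J00397, all in the wider end of the set by CV. Their number was not firm. It was 0 when any 1 of 10 libraries was left out (2 DAP replicate 2, all 3 of 4 DAP, and replicates 2 to 4 of 6 and of 8 DAP), 1 without ovule replicate 3 or 6 DAP replicate 1, 2 without ovule replicate 2, 2 DAP replicate 4 or 8 DAP replicate 1, and 10 without 2 DAP replicate 1. It was 7 in edgeR's likelihood ratio test, 31 in that of DESeq2, and 1 with the maternal plant as a block, where none of the 4 was kept.

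By transition, 18.3% of all genes tested were called between 0 and 2 DAP, 0.198% between 2 and 4 DAP, 7.35% between 4 and 6 DAP and 14.3% between 6 and 8 DAP. The stable genes had 1 call between 0 and 2 DAP, Migut.H00209, higher at 2 DAP by 0.69 on the log2 scale, where 11.8% of all genes were called higher. This call was lost without 2 DAP replicate 3, and there were 2 calls without ovule replicate 3 or 5 and 3 without 2 DAP replicate 1. edgeR's quasi-likelihood test made 0 calls among them in the other transitions, with 15, 6 and 22 unadjusted p below 0.05 in order of age, and edgeR's likelihood ratio test made 0 there as well. The shares of all genes with an unadjusted p below 0.05 are not given here.

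Migut.K00178 was at 38.4, 31.5, 26.8, 32.2 and 36.3 normalized CPM in ovules, 49.2, 35.8, 37.5 and 41.2 in 2 DAP seeds, 53.8, 51.3 and 50.6 in 4 DAP seeds, 52.0, 49.6, 53.1 and 47.3 in 6 DAP seeds, and 34.8, 43.9, 38.8 and 40.8 in 8 DAP seeds. It was higher at 4 and 6 DAP than in every ovule and 8 DAP library, and on total counts its lowest age was 8 DAP, at 31.2. Migut.J00397 had the opposite shape, with 85.1, 71.6, 67.2, 60.2 and 62.2 in ovules, 51.1, 48.9, 50.8 and 42.9 in 2 DAP seeds, 49.3, 44.4 and 47.2 in 4 DAP seeds, 60.8, 53.8, 58.0 and 46.6 in 6 DAP seeds, and 59.5, 63.7, 74.5 and 71.9 in 8 DAP seeds. Its ovule libraries overlapped those of 6 and 8 DAP, and none of 2 or 4 DAP.

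Libraries of 1 age differed more at 0 and 2 DAP than later. The median CV among libraries of 1 age was 17.3% in ovules and 15.7% at 2 DAP, and 6.55%, 7.39% and 10.9% at the later ages. In the CPM window the same medians were 28.1%, 27.4%, 7.87%, 9.03% and 13.4%. Of the 200 stable genes, 80 had their highest and 86 their lowest library among the 5 ovule libraries, and 45 and 66 among those of 2 DAP. As shares these are 40.0% and 43.0% at 0 DAP and 22.5% and 33.0% at 2 DAP, where the window had 36.8% and 46.7%, and 32.3% and 19.5%. The number of stable genes more than 25% away from their own mean was 28 to 57 in ovule libraries and 66 in 2 DAP replicate 4, but 14 to 25 in the other 2 DAP libraries. It was 3 to 22 at 4 DAP, 3 to 12 at 6 DAP and 13 to 33 at 8 DAP, where replicates 3 and 4 had 32 and 33.

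These are also the ages that mix the 2 library series. Between the series the stable genes differed by a median of 0.20 on the log2 scale in either direction at 0 DAP (3 libraries of numbers 15 to 20 against 2) and by 0.21 at 2 DAP (3 against 1), against 0.39 and 0.52 in the window. They went no single way, with 112 of the 200 higher in numbers 15 to 20 at 0 DAP and 118 in 2 DAP seeds. At 0 DAP the series cannot be told apart from the pooling of plants, since the ovule libraries of numbers 15 to 20 are those for which the study pooled several plants. The part of either in the spread of ovules was not tested.

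**Figure D3:**
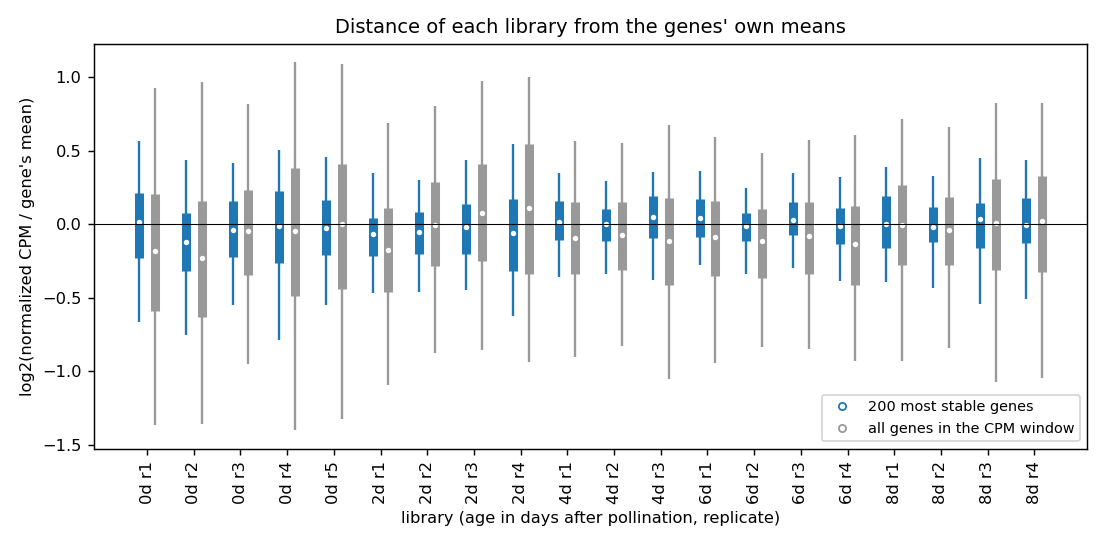
Distance of each library from the genes' own means, as log2(normalized CPM / mean over 20 libraries), for the 200 stable genes (blue) and all 2178 genes in the CPM window (grey). Thin lines hold the central 95% of genes, thick lines the central 50%, and points are medians. The thin blue lines are longest in ovule replicates 1, 2 and 4 and in 2 DAP replicate 4, and shortest in the libraries of 4 and 6 DAP.

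Stability depended on the scaling. The 200 stable genes together took 1.64% of all counts in ovule replicates 1 and 2, 1.11% to 1.44% in the other ovule libraries, and 0.889% to 1.01% at 8 DAP. At 2 DAP replicate 1 gave 1.48% and the others 0.837% to 0.978%. After TMM scaling their sum stayed between 10972 and 12069 normalized CPM in every library. From 0 to 8 DAP the median stable gene differed by 0.01 on the log2 scale under TMM, by 0.02 under DESeq2 size factors and by -0.60 per total count, and the median of all genes tested differed by -0.08, -0.06 and -0.60. Ranked on total counts, 33 of the 200 were among the steadiest 200, and with DESeq2 size factors 181 were. The 2 scalings that follow the bulk of genes thus shared nearly the same set.

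**Figure D4:**
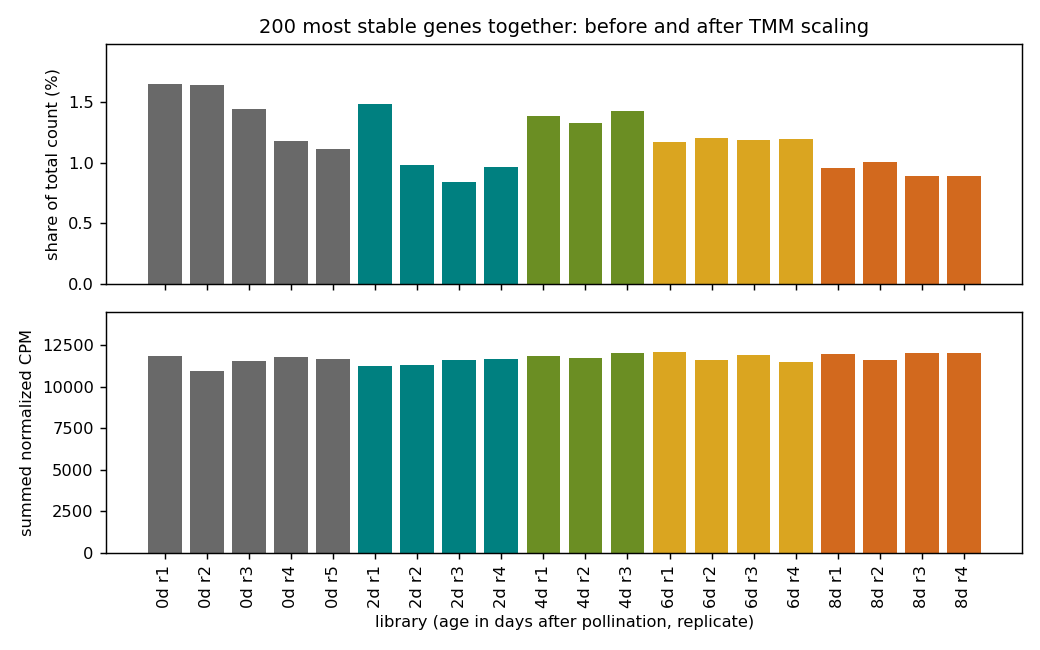
The 200 stable genes together in each library, as a share of the total count (%, top) and as summed normalized CPM (bottom), with bars coloured by age. The share is 0.837% to 1.64%, and the sum after TMM scaling is 10972 to 12069.

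The set kept both under all 3 scalings and with each library left out was small. Of the 200 genes, 130 stayed in the set whichever library was left out, and 23 of these were also chosen both on total counts and with DESeq2 size factors. With the other choices of window and of measure, 17 genes were in the set under all 8 settings that used every library. In libraries 1 to 14 alone 11 of the 17 were not chosen, among them the KUP7 homologue Migut.B00611 and the DSK2 homologue Migut.B00013. Under these choices and with each library and each whole age left out, 5 genes were in the set every time. They were Migut.M00038, Migut.M00724, Migut.G00149, Migut.B00004 and Migut.N02088, named here after their values were seen. The least firm of the 200 was kept in 3 of the 20 choices with a library left out.

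Libraries that the choice did not use were described by another measure, the distance of a gene there from its mean in the other libraries. The distances were taken after TMM scaling of all 20 libraries together. The 20 choices with 1 library left out each shared 156 to 194 genes with the 200, so that they are not independent cases. With 1 library left out, the 200 steadiest genes of the other 19 lay a median of 1.08 times (6 DAP replicate 2) to 1.31 times (2 DAP replicate 4) from their mean in the library left out. The genes of the CPM window lay a median of 1.18 to 1.40 times away, and were farther than the chosen genes in all 20 cases. Between 74.5% and 100% of the chosen genes were within 1.5 times, against 59.5% to 88.3% of the window.

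Whole ages were also left out. The 200 genes chosen in seeds alone lay a median of 1.31 times from their seed mean in ovules, close to the 1.36 times of the window, and 73.5% of them were within 1.5 times. Genes chosen without 8 DAP lay 1.20 times away at that age (window 1.28), and those chosen without 2, 4 or 6 DAP lay 1.15, 1.15 and 1.13 times away (window 1.20, 1.23 and 1.24). The set chosen without ovules shared 95 genes with the 200, the fewest of any age left out. Chosen in libraries 1 to 14 alone, the genes had a median CV of 12.5% there and of 22.2% in libraries 15 to 20, where the window had 29.2%. These shared 89 genes with the 200.

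**Figure D5:**
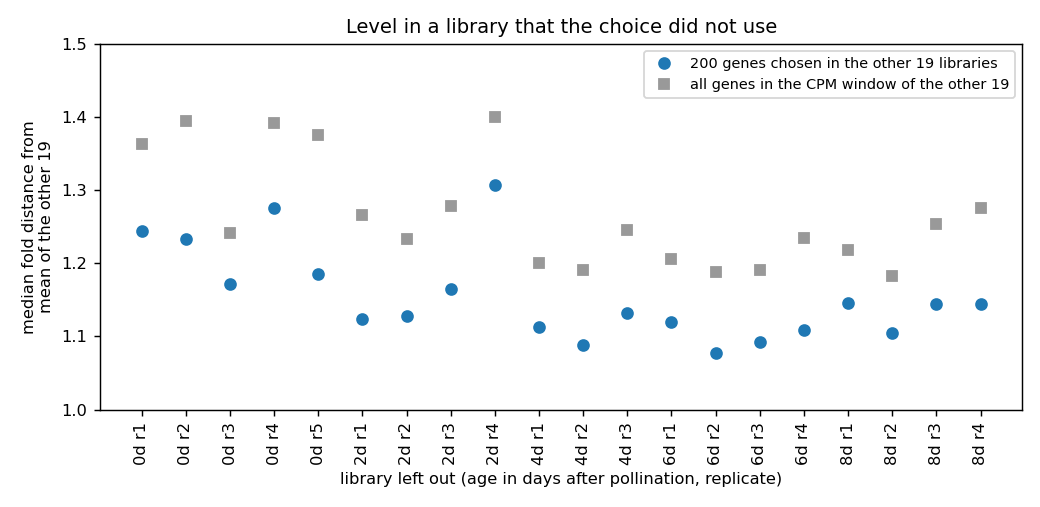
Median fold distance of a library from the mean of the other 19, for the 200 genes chosen in those 19 (circles) and for all genes in their CPM window (squares). The vertical axis starts at 1, no distance. The circles run from 1.08 to 1.31 and lie below the squares, 1.18 to 1.40, in every library.

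None of the 7 reference gene homologues found was among the 200. Only PEX4 and TIP41-like lay in the CPM window, where 200 of 2178 genes were chosen, and the rule left out the others whatever their CV. Nothing is read from this count. The rule was not built from these 7 genes, so that their change with age was tested. Migut.D00031, Migut.D02190 and Migut.D02191 were, however, found through lists that the study picked for change or for another pattern. Their CVs and adjusted p-values are therefore not free of that choice. PEX4 was at 31.1, 32.3, 66.9, 51.3 and 70.7 normalized CPM in ovules, 53.2, 139.9, 172 and 180.3 in 2 DAP seeds, 51.3, 65.4 and 56.0 in 4 DAP seeds, 71.0, 75.1, 82.4 and 75.9 in 6 DAP seeds, and 114, 102, 122 and 142 in 8 DAP seeds. It lay in the CPM window with a CV of 49.8%, the rank of 2022 among 2178. Its mean was 2.70 times higher at 2 DAP than in ovules, and the joint test called it (edgeR quasi-likelihood, adjusted p = 0.000935, and 1.54e-05 to 0.0029 with each library left out). From 0 to 2 DAP it rose by 1.43 on the log2 scale (edgeR quasi-likelihood, adjusted p = 0.00098). The 3 high libraries of 2 DAP are all of numbers 15 to 20, and replicate 1, the only one of numbers 1 to 14, was at 53.2, so that within that series the age has this library alone. With the series as a covariate the edgeR adjusted p of the joint test was 1.3e-07. On total counts its means were still lowest at 0 DAP and highest at 2 DAP, at a ratio of 1.97.

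EF1A was more abundant. It was at 649, 210.3, 176, 88.5 and 143 normalized CPM in ovules, 244, 289, 302 and 143 in 2 DAP seeds, 290.3, 271 and 312 in 4 DAP seeds, 259, 246, 234 and 225.7 in 6 DAP seeds, and 251, 334, 382 and 367 in 8 DAP seeds. It went beyond 200 CPM and so lay outside the window, with a CV of 42.9%, or 30.5% without ovule replicate 1. Ages made up 9.66% of its spread, and the joint test did not call it (edgeR quasi-likelihood, adjusted p = 0.755, and 0.0137 without ovule replicate 1). Migut.D02190 and Migut.D02191, which lie near it by their identifiers and are paired with an elongation factor of Arabidopsis (AT5G60390), had CVs of 55.3% and 45.9% (edgeR adjusted p = 0.0244 and 0.0164). These 2 genes share their homologue, and how the counting divides reads among near-identical copies of this family was not tested, so that the values of all 3 are uncertain.

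The homologue of YLS8 (Migut.A00107), a small spliceosome protein, was highest in the oldest seeds. It was at 85.5, 46.0, 51.9, 47.9 and 56.5 normalized CPM in ovules, 56.9, 82.4, 127 and 74.2 in 2 DAP seeds, 90.5, 79.0 and 88.9 in 4 DAP seeds, 166, 118, 152 and 124 in 6 DAP seeds, and 172, 182, 183 and 200.2 in 8 DAP seeds. All 8 DAP libraries were above all those of the other ages, and the joint test called it (edgeR quasi-likelihood, adjusted p = 1.93e-05, mean 3.20 times higher at 8 than at 0 DAP). It missed the window by its last library, and its ratio was 2.05 on total counts.

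The homologue of TIP41-like (Migut.B00402), a gene of TOR signalling, came nearest to the set, with a CV of 24.2% and rank 528. Its ovule libraries lay at 43.1 to 70.4, its 2 DAP libraries at 49.0 to 105 and all others at 59.8 to 79.5 normalized CPM. The joint test did not call it (edgeR quasi-likelihood, adjusted p = 0.0623), but did with the library series as a covariate (edgeR, adjusted p = 0.00253) and without 2 DAP replicate 1 (edgeR, adjusted p = 0.00348). On total counts its CV was 14.5%, below the 25.9% median of the stable genes on that scale. The UBQ5 homologue Migut.D00031, a ubiquitin fused to a ribosomal protein, had a CV of 39.4% and ran from 233 to 911 normalized CPM (edgeR quasi-likelihood, adjusted p = 0.0106, just short of 0.01).

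By their identifiers, the stable genes were spread over the genome's lettered groups. Group N held 32 of the 200 and 318 of the 2178 window genes, group I held 13 of 84, group A 6 of 92, and group O none of 30. There were 3 pairs of stable genes with adjacent identifiers, Migut.B00003 with Migut.B00004, Migut.I00034 with Migut.I00035 and Migut.L01925 with Migut.L01926, where the window had 241 such pairs. The first of these pairs joins the OVA3 homologue, at 62.9 ± 10.3 (SD, n = 5) in ovules and 92.9 ± 11.8 (SD, n = 4) at 8 DAP, to an uncharacterised conserved protein, at 40.6 ± 6.89 (SD, n = 5) and 52.2 ± 4.05 (SD, n = 4).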

How the data were processed

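Strand-specific libraries of ovules and hybrid seeds were sequenced in pairs on an Illumina NextSeq. Reads were mapped by the authors with STAR to a pseudo-reference of each parent, and after the 2 alignments were merged, uniquely mapped pairs were counted per gene with featureCounts on Phytozome v2.0 models. The labels also name Trimmomatic, edgeR and DESeq2. Versions of these are not given in the sources used here. What was deposited are raw counts, not normalized, with a value for each gene in each library.

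Counts were scaled by TMM in edgeR 4.0.16 (limma 3.58.1, R 4.3.3). The test used genes that exceeded 1 CPM in 3 or more libraries, 1 coefficient per age, robust quasi-likelihood fits and Benjamini-Hochberg adjustment over all 20242 genes, at 0.01. It replaced the study's likelihood ratio test, which was run as an alternative, as was DESeq2 1.42.0. A log2 ratio between ages in the scaling check used a pseudocount of 1 CPM. Where a gene had no count, the limit given is that of 3 counts, and such limits cover counting error only. Plots were made with Python 3.11.15 and matplotlib 3.10.9.

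Ages and replicate numbers came from the labels. The study names the maternal plants of 2 ovule libraries and says that seeds came from 4 plants, 1 plant to a replicate. The plant of a seed library was read from the replicate number in its sample name, which is an assumption. The deviations of libraries of 1 plant so read had a median correlation of 0.0114 over 28 pairs, with a range of -0.293 to 0.399. Over 131 pairs of other plants the median was -0.0044. These medians do not show that the pairing can be ignored. Ovule replicates 3 to 5, which pooled 2 of these plants with others, were treated as plants of their own. A plant with 1 library fits that library exactly, so that in the block fit 0 DAP rests on ovule replicates 1 and 2. The plant as a block changed the calls, as given in the last section. In that change the pairing and the loss of ovule replicates 3 to 5 cannot be told apart. By the study's account the same 4 mothers and the same pollen donors gave the seeds of all ages, though the labels describe the pools differently. The main test has no term for the mother, and its p-values measure the spread between pools.

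Named genes were the 10 of smallest CV, the 200th and the next gene, those with a homologue at hand (values for up to 15), the 5 with the largest and the 5 with the smallest ratio of age means, the reference genes and the markers. Of 19 reference homologues looked up, 7 had an identifier. Members, lists and tests were chosen with earlier results of these data known. No genome was used, and 180 of the 200 genes are named by identifier only.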

Additional observations from a re-analysis of the deposited data

Results flagged for a closer look

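In groups of 4 or 5 libraries, a library was picked out where its gap to the nearest other library exceeded the 95% critical value of Dixon's test. Of 188 groups, from 47 genes, 12 had such a library, and chance alone does so in about 1 in 20 groups. Among the stable genes there were 7. In 2 DAP replicate 1, Migut.L01013 was low at 41.4 normalized CPM (others 52.3 to 54.5) and Migut.N02574 was high at 159.7 (others 123 to 128). In ovule replicate 1, Migut.N02262 was high at 96.4 (others 62.3 to 67.4) and the RABG3F homologue Migut.B00246 was low at 73.4 (others 105 to 113). The BSK1 homologue Migut.C00946 was high in 2 DAP replicate 3 at 41.9 (others 31.1 to 32.6), and the HEMG1 homologue Migut.D00009 was high in 6 DAP replicate 3 at 47.9 (others 38.1 to 39.2). Migut.L01464 was low in 8 DAP replicate 2 at 80.9 (others 91.3 to 91.8).

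The other 5 were no stable genes. In ovule replicate 1, EF1A (Migut.D02188) was high at 649 normalized CPM (others 88.5 to 210.3) and the YLS8 homologue Migut.A00107 at 85.5 (others 46.0 to 56.5). Ovule replicate 1 is also the shallowest library, with 7588155 counts, and whether depth has a part in these values was not tested. The FUS3 homologue Migut.F00019 was high in 2 DAP replicate 3 at 2.40 (others up to 0.286), the ABI3 homologue Migut.D00511 in 6 DAP replicate 3 at 5.94 (others 3.05 to 3.31), and Migut.B00480 in 6 DAP replicate 4 at 0.263, where the other 3 libraries had no count.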

How the results depend on the processing

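Of the 200 stable genes, 33 were chosen again on total counts, 131 in a window of 10 to 400 CPM, 119 with no window, 89 in libraries 1 to 14, and 95, 126 and 128 without all libraries of 0, 2 and 8 DAP (the ages were left out as a check added after seeing the data). With 1 library left out the number was 156 to 194. The 4 joint calls among stable genes became 7 with the likelihood ratio test, 2 with DESeq2 size factors, 0 without the filter on low counts, 14 with the library series as a covariate, 25 at a rate of 0.05, 31 with DESeq2's test, and 0 to 10 with 1 library left out. Over all genes the first 6 of these settings called 12405, 10185, 10244, 11878, 13548 and 12450 in this order. Nothing is read from the counts of stable genes, as the rule used the same libraries. With the maternal plant as a replicate block there was 1 joint call among stable genes. In the block fit 0 DAP rests on ovule replicates 1 and 2, so that its changes are not those of the pairing alone. Between 0 and 2 DAP there were 2 calls with the series covariate, 12 at a rate of 0.05 and 0 to 3 with 1 library left out, and between 6 and 8 DAP 2, 8 and 0 to 1. Counts over all genes are not given here for single transitions under these settings, so that nothing is read from them. The block kept the 1 call between 0 and 2 DAP, added none among stable genes in the other transitions, and left each reference gene on its side of 0.01. Over all genes it gave 9738 joint calls, of which 8352 were among the 10172, and the calls of the transitions went from 3700, 40, 1487 and 2892 to 2486, 372, 1713 and 4241 in order of age.

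Over all genes the joint test called 10172, and 9019 to 11726 with 1 library left out. On total counts the CV was 32.4% for PEX4, 14.5% for Migut.B00402 and 24.5% for Migut.D00031. CVs on total counts of the 10 steadiest genes were 18.8% to 29.6%. With the series covariate, also added after seeing the data, edgeR's adjusted p was 0.00253 for Migut.B00402, 0.00132 for Migut.D00031 and 0.00124 for Migut.D02190. With 1 library left out, the edgeR adjusted p ran from 0.00348 to 0.146 for Migut.B00402, from 0.00146 to 0.0236 for Migut.D00031, from 0.0137 to 0.884 for Migut.D02188, from 0.00325 to 0.0559 for Migut.D02190 and from 0.00173 to 0.0408 for Migut.D02191, and the CV of Migut.D02188 from 30.5% to 44.2%. The cause was not tested in any of these. Having 3 to 5 libraries per age, and mothers that by the study's account were shared between ages, limits how well a level profile can be told from a small change.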
